A study of Mus musculus with 12 samples.

Results

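The splicing factor genes described here are the 55 of 24259 genes in the deposited table whose symbols belong to 5 families, namely SR proteins (*Srsf*, 11 genes), hnRNP proteins (*Hnrnp*, 20 genes), subunits of splicing factor 3a and 3b (*Sf3a* and *Sf3b*, 9 genes), proteins of the spliceosomal snRNPs (*Snrp*, 12 genes) and U2AF proteins (*U2af*, 3 genes). They were chosen by symbol and not by their values, though earlier results of these data were known at the time. Their transcripts were measured in germinal vesicle (GV) stage mouse oocytes, the fully grown oocytes of the ovary before meiosis resumes, of wild-type (WT) mice and of mice homozygous for *Lsm14b* tm1a(KOMP)Mbp (KO). This is a reporter-tagged insertion carried in all cells, so effects within the oocyte and effects of other cells on it cannot be told apart. Mice of both genotypes were 3 weeks old and received 5 IU of PMSG, a gonadotropin that makes follicles grow, 46 h before collection. About 1500 oocytes were lysed per gradient and separated on sucrose. Fractions 1 to 10 (the RNP pool, which holds mRNA with few or no ribosomes) and fractions 11 to 28 (the polysome pool, which holds mRNA loaded with ribosomes) were sequenced separately, with 3 libraries per pool and genotype. Whether the 3 libraries came from separate animals is not stated, so the p-values measure only the spread between these libraries.

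Splicing factors remove introns from pre-mRNA in the nucleus. The U1, U2, U4, U5 and U6 snRNPs, most of which carry a ring of Sm proteins, form the spliceosome. U2AF and the SF3 subunits bring U2 snRNP to the branch point, and SR and hnRNP proteins bind exons and introns and promote or repress the use of nearby splice sites. Fully grown oocytes transcribe little, so transcripts found in them are largely stored ones, and their position between the RNP and polysome pools reflects how they are held or translated. LSM14B belongs to a family of RNA-binding proteins that act on stored and repressed mRNA, and the comparisons below ask how the splicing factor transcripts were distributed with and without it.

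The values are FPKM, in which fragment numbers are divided by the length of the transcript and by the size of the library, so they can be compared between genes but are shares of each pool and not amounts per oocyte. Less RNA per oocyte and fewer oocytes could not be told apart. *Lsm14b* itself was listed at 11.3 to 34.6 FPKM in the 6 WT libraries and at 0 to 0.893 FPKM in the 6 KO libraries. The steps between the lowest values put the depth of the libraries at about 4900000 to 7910000 fragments, and 10566 to 12720 genes had a value above 0. The KO polysome library of replicate 2 stood apart through *Mir300*, listed at 170809 FPKM there and at 0 in the other 11 libraries, and the called members and family counts from KO polysomes were also computed without it. All 12 oocyte markers examined were present. Their summed level was 21900 to 23500 FPKM in WT and 25600 to 27700 FPKM in KO polysomes. In RNP it was 6590 to 7040 FPKM in WT and 8780 to 9280 FPKM in KO, so it was higher in KO without overlap in both pools. Of 14 markers of granulosa and cumulus cells, which surround the oocyte, the summed level was 27.5 to 79.7 FPKM in WT and 81.4 to 103 FPKM in KO polysomes, and 31.4 to 37.2 FPKM in WT and 43.2 to 65.7 FPKM in KO RNP. In KO polysomes 9 of the 14 reached 1 FPKM in at least 1 library against 6 in WT. Most of the higher sum came from *Inha*, listed at 39.4 to 51.4 FPKM against 0 to 9.58 FPKM in WT. *Inhba* (3.72 to 11.9 against 0 to 0.252 FPKM) and *Fshr* (3.14 to 6.74 against 0 to 0.70 FPKM) were also higher there without overlap. *Wt1* and *Ptgs2*, at most 4.06 and 0.234 FPKM in WT polysomes, were at 0 in KO polysomes. The granulosa-cell regulator *Foxl2* was at 0 in every polysome library and was listed only in KO RNP replicate 2, at 1.01 FPKM. *Cyp19a1*, the most abundant of these markers in WT, did not rise with it, at 62.0, 19.003 and 32.0 FPKM in WT and 14.6, 23.5 and 34.5 FPKM in KO polysomes. Markers of theca and stroma summed to at most 3.22 FPKM, and those of blood and endothelium to 13.2 to 42.1 FPKM. Nearly all of the latter sum was *Pecam1*, listed at 13.2 to 41.0 FPKM, and 7 or 8 of the 9 blood and endothelium markers were at 0 in all libraries of a group. The summed granulosa and oocyte markers both differed with genotype in the same libraries as every KO to WT comparison below. The part of either in the results was not tested.

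Splicing factor transcripts were present over a wide range of levels. Averaged over the 12 libraries, 3 members had at least 100 FPKM, 33 had at least 10 FPKM and 4 had less than 1 FPKM, and 52 of the 55 were above 0 in all 12 libraries. The summed level of all members was 1839 to 2116 FPKM in WT polysomes, 1954 to 2211 FPKM in KO polysomes, 1858 to 2045 FPKM in WT RNP and 2136 to 2190 FPKM in KO RNP. The polysome groups overlapped, whereas every KO RNP library lay above every WT RNP library. In RNP the summed SR transcripts had 220.7 to 261.3 FPKM in WT and 314.3 to 377.6 FPKM in KO, and the summed hnRNP transcripts 430.8 to 533.5 FPKM in WT and 613.8 to 632.9 FPKM in KO. Most of the higher hnRNP sum came from *Hnrnpf*, with means of 132 FPKM in WT and 248 FPKM in KO RNP. The median over the 20 hnRNP genes was 7.11 FPKM in WT and 2.94 FPKM in KO RNP. Of the 19 tested below, 9 were higher and 10 lower in KO RNP. The median coefficient of variation between replicates, over the 33 members at 10 FPKM or more, was 21.8% in WT polysomes, 16.8% in KO polysomes, 17.1% in WT RNP and 11.5% in KO RNP. The corresponding values over all 5057 genes at that level were 23.3%, 18.1%, 18.4% and 12.1%, so the members varied about as much as other genes did.

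**Figure D1:**
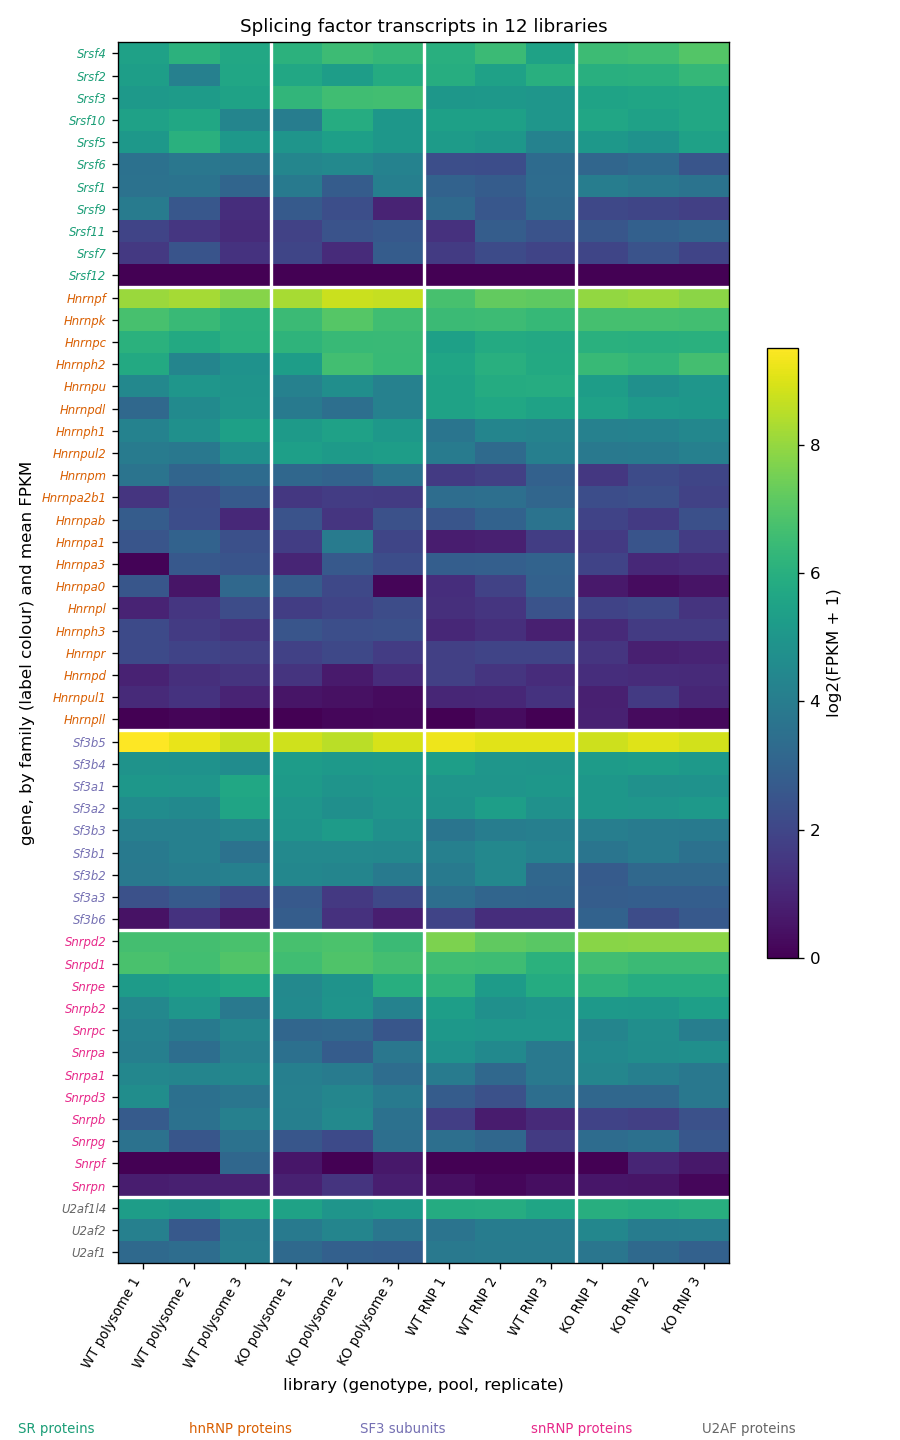
Level of each splicing factor gene (rows, grouped by family and ordered by mean FPKM) in each of the 12 libraries (columns, by genotype and pool), as log2(FPKM + 1) in colour. *Sf3b5* and *Hnrnpf* have the highest mean levels, and *Srsf12* is at 0 in every library.

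Within each complex the transcript levels were uneven. *Sf3b5*, which encodes a small subunit of SF3b, had the highest mean level of all members at 515 FPKM (368 to 729 FPKM across the 12 libraries). *Sf3b6*, whose product is the SF3b subunit next to the branch-point adenosine, had a mean of 2.70 FPKM, and *Sf3b1*, which encodes the scaffold of the complex, had 16.4 FPKM. *Sf3b4* and *Sf3a1*, the next most abundant SF3 transcripts, had means of 32.9 and 32.3 FPKM. The genes for the ring of Sm proteins spanned a similar range. *Snrpd2* had a mean of 149 FPKM, *Snrpd1* of 98.0 FPKM, *Snrpe* of 49.4 FPKM, *Snrpd3* of 12.2 FPKM, *Snrpb* of 7.88 FPKM, *Snrpg* of 7.49 FPKM and *Snrpf* of 0.874 FPKM. These levels rest on the transcript length that the authors divided by. Their locus for *Sf3b5* spans 735 bases, while the GENCODE M21 transcript used here has 3841 bases. That transcript was picked as the longest among those with the longest coding sequence, and need not be the one present in oocytes. If the longer length applied, its FPKM would be several times lower, so its place as the most abundant member is uncertain. *Snrpf* overlaps *Ccdc38* and *4933408J17Rik* on the opposite strand, and its mean was set by 1 WT polysome library at 7.95 FPKM, with the other 11 at 0 to 0.954 FPKM.

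Among the hnRNP genes, those for the RNA-binding proteins F and K, which bind runs of G and of C, were the most abundant. *Hnrnpf* had a mean of 256 FPKM, *Hnrnpk* of 94.5 FPKM and *Hnrnpc*, whose product binds runs of U, of 64.1 FPKM. *Hnrnpa1* and *Hnrnpa2b1*, which encode 2 of the best known nuclear hnRNP proteins, had means of only 4.00 and 4.60 FPKM. Several of the hnRNP A and Sm genes have near-identical processed copies in the mouse genome, between which reads may have been split. The SR genes with the highest means were *Srsf4* at 75.7 FPKM, *Srsf2* at 52.1 FPKM and *Srsf3* at 51.9 FPKM. Of the U2AF genes, *U2af1l4*, a paralog of the subunit that reads the AG of the 3′ splice site, had a mean of 47.7 FPKM, against 14.4 FPKM for *U2af2* and 10.4 FPKM for *U2af1*. The 4 members below 1 FPKM were *Srsf12*, *Hnrnpll*, *Snrpn* and *Snrpf*. They did not pass the filter of 1 FPKM in at least 3 libraries in any comparison, while *Hnrnpul1* failed it in 2 comparisons and *Hnrnpa0* in 1.

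KO and WT were first compared within the polysome pool. Among the 50 members that could be tested, *Srsf3* and *Hnrnpul2* were higher in KO polysomes and none was called lower. Thus 4% of the tested members were called, against 10.4% of all 9536 genes tested (5.64% higher and 4.73% lower in the background of all genes), and the median change of the members was 0.09 on the log2(FPKM + 1) scale, against 0.10 over all genes. At an unadjusted p under 0.05, 9 members passed, which is 18% against 26.3% of all genes. The splicing factor transcripts as a whole were therefore called no more often than other transcripts of the pool.

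*Srsf3*, which encodes the smallest SR protein and lies on chromosome 17 of GRCm38 from 29032628 to 29043373, had 33.2, 36.7 and 44.2 FPKM in WT polysomes and 75.7, 96.7 and 96.9 FPKM in KO polysomes. Every KO library lay above every WT library, with means of 38.0 ± 5.58 and 89.7 ± 12.2 FPKM (SD, n = 3). The change was 1.22 on the log2(FPKM + 1) scale (SE 0.19, limma adjusted p = 0.0082), a 2.33-fold difference on that scale. It stayed past the threshold in all 9 other settings and with each of the 6 libraries left out (1.13 to 1.33, adjusted p = 0.012 to 0.0414). Without the KO library that holds *Mir300* it was 1.16 (limma adjusted p = 0.0413).

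*Hnrnpul2*, a relative of the chromatin- and RNA-binding *Hnrnpu*, had 14.7, 13.04 and 25.9 FPKM in WT polysomes and 39.8, 35.0 and 37.9 FPKM in KO polysomes. The groups did not overlap, and the change was 1.09 (SE 0.29, limma adjusted p = 0.0493). This call lay at the threshold: it was kept in 4 of 9 other settings, and with any library other than the WT library of replicate 3 left out the adjusted p was 0.0978 to 0.146 (0.132 without the KO library that holds *Mir300*). *Hnrnpul2* shares exons on its strand with the annotated gene *AC129217.1*, and reads of the pair cannot be separated here. Of the other abundant members, *Hnrnpf* (272, 299 and 217 FPKM in WT, 308, 427 and 410 FPKM in KO) changed by 0.54 (SE 0.17, limma adjusted p = 0.0809, and 0.249 without KO replicate 2), and *Srsf4* changed by 0.58 (SE 0.22, limma adjusted p = 0.13). In neither did the groups overlap, and neither passed the test. *Snrpc*, which encodes the U1 protein that helps U1 snRNP bind the 5′ splice site, had the largest change in the other direction, with 17.4, 13.9 and 19.4 FPKM in WT and 7.75, 8.25 and 4.83 FPKM in KO. Its change of -1.19 (SE 0.35, limma adjusted p = 0.0638) did not pass the test either, although all 3 KO libraries lay below the WT ones.

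**Figure D2:**
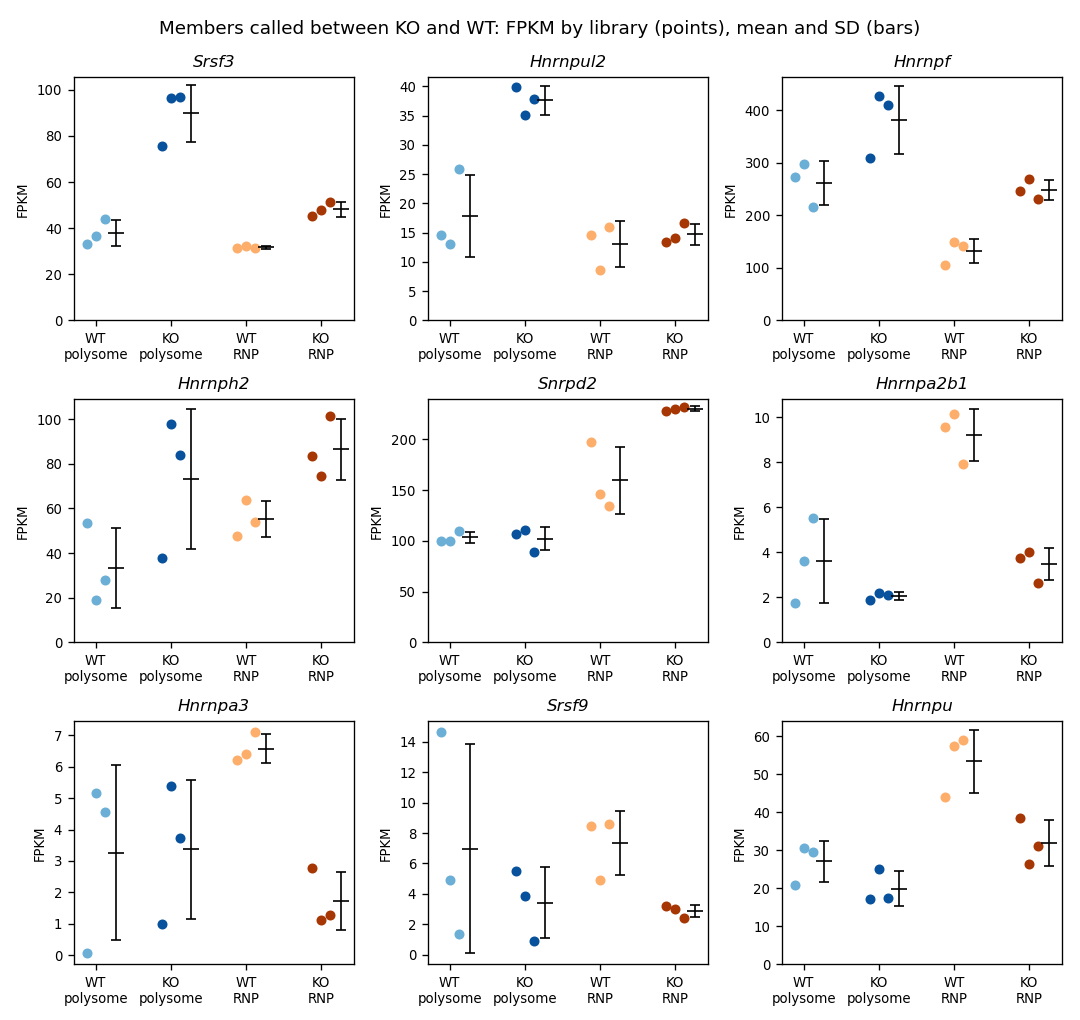
FPKM of the 9 members called between KO and WT in at least 1 pool, with 1 point per library, and the mean and SD of 3 libraries beside the points. *Srsf3* is higher in KO in both pools, *Hnrnpf* and *Hnrnph2* have higher KO values in RNP, and *Hnrnpa2b1*, *Hnrnpa3*, *Srsf9* and *Hnrnpu* have lower ones there.

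In the RNP pool, 51 members were tested, of which 4 were higher (*Hnrnpf*, *Hnrnph2*, *Srsf3* and *Snrpd2*) and 4 were lower in KO (*Hnrnpa3*, *Hnrnpa2b1*, *Srsf9* and *Hnrnpu*). This was 15.7% of the tested members, against 20.7% of the 9931 genes tested (10.5% higher and 10.2% lower). The median change was 0.185 over the members and 0.0541 over all genes, and 37.3% of the members and 34.1% of all genes had an unadjusted p under 0.05. The share of members called was again below that of all genes.

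*Hnrnpf*, on chromosome 6 from 117900324 to 117925622, was the member called with the smallest adjusted p in RNP. It had 106, 149 and 141 FPKM in WT and 247, 268 and 230 FPKM in KO (132 ± 22.6 and 248 ± 19.1 FPKM, SD, n = 3), with no overlap between the groups. The change was 0.92 (SE 0.14, limma adjusted p = 0.00215), and it held in all 9 other settings and with each library left out (0.772 to 1.01). *Hnrnph2*, an X-linked gene for a close relative of hnRNP F, had 47.6, 63.7 and 54.0 FPKM in WT and 83.6, 74.7 and 102 FPKM in KO RNP. It changed by 0.64 (SE 0.16, limma adjusted p = 0.0227), and in polysomes, where its WT and KO values overlapped, by 1.13 (SE 0.44, limma adjusted p = 0.142). The reads of *Hnrnpf* cannot be told apart from those of the antisense genes *4933440N22Rik* and *Gm43863*, since counting by strand is not stated. The related *Hnrnph1* changed by 0.19 in RNP (SE 0.23, limma adjusted p = 0.625), with overlapping groups.

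*Srsf3* was higher in KO in this pool too, with 31.5, 32.3 and 31.3 FPKM in WT and 45.1, 47.8 and 51.4 FPKM in KO. The change was 0.59 (SE 0.14, limma adjusted p = 0.0199), again with no overlap. *Snrpd2*, an Sm ring gene, had 197, 147 and 135 FPKM in WT and 228, 230 and 232 FPKM in KO, a change of 0.55 (SE 0.14, limma adjusted p = 0.0226). Its KO values were nearly equal and all lay above the WT values, which spread more widely. In polysomes *Snrpd2* had nearly equal means of 103 ± 5.72 FPKM in WT and 102 ± 11.4 FPKM in KO (SD, n = 3), a change of -0.02 (SE 0.15, limma adjusted p = 0.947).

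The members that fell in KO RNP included the pair of hnRNP A/B genes *Hnrnpa2b1* and *Hnrnpa3*, whose products bind UAG-like motifs. *Hnrnpa2b1* had 9.59, 10.1 and 7.91 FPKM in WT and 3.76, 4.00 and 2.66 FPKM in KO, a change of -1.20 (SE 0.30, limma adjusted p = 0.0195). *Hnrnpa3* had 6.21, 6.40 and 7.09 FPKM in WT and 2.79, 1.11 and 1.30 FPKM in KO, a change of -1.52 (SE 0.35, limma adjusted p = 0.0156). In both genes every KO library was below every WT library, and the values are low, resting on an estimated 10.9 to 43.8 fragments per KO library. *Hnrnpa3* also overlaps *Gm24574* in an exon on its strand. *Hnrnpu*, whose product binds chromatin and nascent RNA, fell from 44.0, 57.4 and 59.0 FPKM to 38.4, 26.5 and 31.1 FPKM, a change of -0.73 (SE 0.19, limma adjusted p = 0.0256). *Srsf9* changed by -1.08 (SE 0.33, limma adjusted p = 0.0476), from 8.48, 4.93 and 8.60 FPKM in WT to 3.20, 2.98 and 2.44 FPKM in KO. Its values are low too, with an estimated 15.4 to 23.5 fragments per KO library. None of these 4 genes was called in polysomes, where each had overlapping groups.

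Apart from that of *Hnrnpf*, every RNP call was lost when 1 or more single libraries were left out, while the direction remained. *Srsf3* was past the threshold with each WT library left out and not with a KO library left out (adjusted p = 0.0587, 0.0742 and 0.0932 without KO replicates 1, 2 and 3). *Hnrnph2* was lost without WT replicate 1 (0.0629) and KO replicates 1 and 3 (0.0664 and 0.0958). *Hnrnpa3* was lost without KO replicates 2 and 3 (0.063 and 0.0594), and *Hnrnpa2b1* without KO replicates 1 and 3 (0.0556 and 0.0762). *Snrpd2* was kept only without WT replicate 1, with an adjusted p of 0.0528 to 0.0687 otherwise. *Hnrnpu* was lost without WT replicates 2 and 3 and KO replicates 2 and 3 (0.0614 to 0.0993), and *Srsf9* was kept only without WT replicate 2 (0.0996 to 0.14 otherwise). Fits without a library also hold fewer samples for the test.

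By family, the SR transcripts stood mostly higher in KO RNP without most of them passing the test. Of the 10 tested, 9 had a change above 0, with a median of 0.35, and this count stayed at 9 of 10 with equal library medians and with quantile normalization. Over all genes, 5293 of 9931 were above 0 in RNP and 5313 of 9536 in polysomes. In polysomes 7 of 10 SR transcripts were above 0, with a median of 0.375 (6 of 10 after quantile normalization). This rested in part on single libraries, with 5 of 10 and a median of 0.188 without KO polysome replicate 3, and 7 of 10 and a median of 0.577 without KO polysome replicate 2, which holds *Mir300*. Of the 20 values, 3 passed, namely *Srsf3* in both pools and *Srsf9*, which was lower. The 2 most abundant other SR genes were among the uncalled ones. *Srsf4* changed by 0.70 in RNP (SE 0.24, limma adjusted p = 0.0738; 0.954 and adjusted p = 0.0151 without WT replicate 2) and *Srsf2* changed by 0.33 (SE 0.18, limma adjusted p = 0.222). SF3 subunits gave 0 calls by limma in either pool, with 1 of 9 at an unadjusted p under 0.05 in polysomes and 4 of 9 in RNP. U2AF genes also gave 0 calls by limma, with 0 and 1 of 3 at that level. Over all genes 10.4% were called in polysomes and 20.7% in RNP, and 26.3% and 34.1% had an unadjusted p under 0.05. With 9 and 3 genes, 0 calls does not set these families apart from other genes. The summed granulosa and oocyte markers were both higher in the same KO libraries as the SR transcripts, and the part of either was not tested.

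The other most abundant members were not called between genotypes. *Sf3b5* had 729, 589 and 423 FPKM in WT and 449, 368 and 487 FPKM in KO polysomes, and 624, 538 and 545 FPKM in WT and 437, 525 and 466 FPKM in KO RNP. Its changes of -0.39 (SE 0.20, limma adjusted p = 0.249) and -0.26 (SE 0.09, limma adjusted p = 0.086) did not pass the test, and only the RNP groups did not overlap. *Hnrnpc* was higher in every KO library than in any WT library of both pools, by 0.40 in polysomes (SE 0.17, limma adjusted p = 0.184) and by 0.38 in RNP (SE 0.15, limma adjusted p = 0.108), without passing. *Hnrnpk* changed by 0.27 and 0.22 (limma adjusted p = 0.471 and 0.207), *Snrpd1* by -0.07 and 0.11 (0.822 and 0.665), *Snrpe* by -0.33 and 0.22 (0.615 and 0.543) and *U2af2* by 0.39 and 0.27 (0.626 and 0.455) in polysomes and RNP. *U2af1*, its partner in the U2AF dimer, had 13.2, 14.7 and 14.6 FPKM in WT and 12.5, 8.41 and 6.75 FPKM in KO RNP (-0.61, SE 0.27, limma adjusted p = 0.145). Close to the threshold in RNP without passing it were *Snrpc* (-0.65, limma adjusted p = 0.0501), *Hnrnpa0* (-1.53, limma adjusted p = 0.0538), *Sf3b6* (1.15, limma adjusted p = 0.0624) and *Srsf1* (0.79, limma adjusted p = 0.0719). These 4 were picked for adjusted p values just above the threshold, so the lack of overlap between their RNP groups adds nothing to the test. *Hnrnpa0* had 1.36, 2.63 and 6.82 FPKM in WT and 0.58, 0.237 and 0.428 FPKM in KO RNP. It passed the filter of 1 FPKM through its WT values alone, and rested on an estimated 3.97 to 10.9 fragments per KO library.

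**Figure D3:**
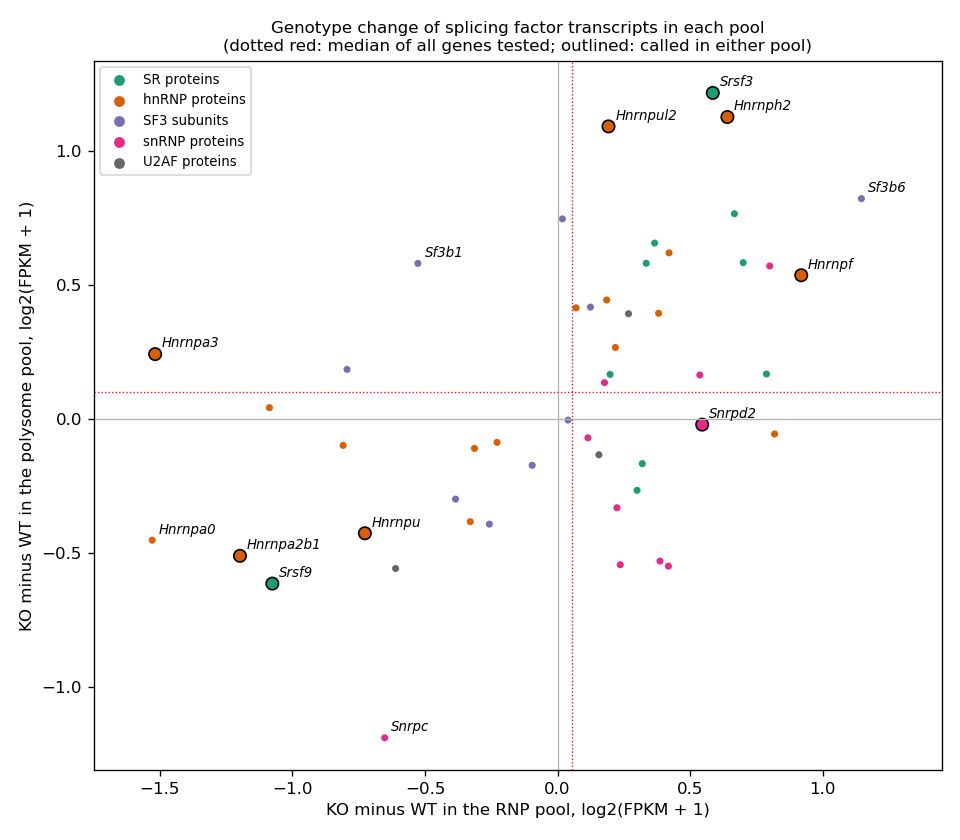
Change between KO and WT in the RNP pool (x axis) and the polysome pool (y axis) for the 50 members tested in both, on the log2(FPKM + 1) scale, coloured by family. Outlined points are called by limma in at least 1 pool, and dotted lines mark the median of all genes tested. *Srsf3*, *Hnrnph2* and *Hnrnpf* lie to the upper right, and *Sf3b1* has a positive polysome and a negative RNP value.

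The pools were then compared within each genotype. These comparisons use the same libraries as those between genotypes, and a difference in FPKM between pools says how a transcript ranks in each pool, not which share of its molecules is on ribosomes. In WT oocytes, *Snrpb* and *Hnrnpf* were higher in polysomes and *Hnrnpu*, *Snrpc* and *Snrpd2* were higher in RNP. These were 5 of 51 tested members, or 9.8%, against 14.7% of all 9574 genes tested (7.97% higher and 6.72% lower in polysomes). In KO oocytes 10 members were higher and 7 were lower in polysomes than in RNP. These were 34.7% of 49 tested members, against 29.2% of all 9851 genes (15.5% higher and 13.8% lower). Without the KO polysome library that holds *Mir300*, 9 were higher and 8 lower, and of the 17 differences only that of *Sf3b1* was lost. The smaller spread between KO libraries given above bears on this difference in number, and its part was not tested.

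*Snrpb*, which encodes the Sm proteins B and B′, had the largest pool difference of all members. It had 5.60, 10.6 and 16.7 FPKM in WT polysomes and 2.40, 0.664 and 1.21 FPKM in WT RNP, and 16.1, 21.4 and 10.6 FPKM in KO polysomes and 2.76, 2.45 and 4.08 FPKM in KO RNP. The RNP values are low, resting on an estimated 4.29 to 16.9 fragments per WT library and 16 to 25.7 per KO library, so the size of the difference is uncertain. The polysome pool was higher without overlap in both genotypes, by 2.25 in WT (SE 0.53, limma adjusted p = 0.0235) and by 2.03 in KO (SE 0.33, limma adjusted p = 0.00162). The WT difference was lost (adjusted p = 0.0519 to 0.0782) without WT polysome replicates 2 or 3 or WT RNP replicates 2 or 3. *Hnrnpf* was also higher in polysomes in both, by 0.99 in WT (SE 0.18, limma adjusted p = 0.00811) and by 0.61 in KO (SE 0.13, limma adjusted p = 0.00843).

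Toward the RNP pool stood the U1 gene *Snrpc*, with 17.4, 13.9 and 19.4 FPKM in WT polysomes and 32.4, 30.9 and 31.1 FPKM in WT RNP. Its polysome minus RNP difference was -0.87 in WT (SE 0.25, limma adjusted p = 0.0468) and -1.41 in KO (SE 0.28, limma adjusted p = 0.00487). *Snrpd2* behaved alike, with -0.60 in WT (SE 0.17, limma adjusted p = 0.0488) and -1.17 in KO (SE 0.11, limma adjusted p = 9.62e-05). For neither gene did the pools overlap in either genotype. The WT calls of these genes were each lost with any 1 library left out (adjusted p = 0.0522 to 0.15 for *Snrpc* and 0.0565 to 0.159 for *Snrpd2*), and the KO calls held in all 6 cases. *Hnrnpu* differed by -0.96 in WT (SE 0.24, limma adjusted p = 0.0296) and by -0.66 in KO (SE 0.22, limma adjusted p = 0.0497). Its WT call was kept only without WT polysome replicate 2 or 3 (adjusted p = 0.0504 to 0.107 otherwise), and its KO call only without KO polysome replicate 2 (0.0586 to 0.182 otherwise).

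In the KO alone, the differences of a further 12 members passed the test, which does not show that they differ from WT. Higher in polysomes were *Hnrnpm* (1.39, SE 0.32, limma adjusted p = 0.011), *Srsf6* (1.36, SE 0.27, limma adjusted p = 0.00487) and *Hnrnpul2* (1.30, SE 0.18, limma adjusted p = 0.000648). The same held for *Hnrnph1* (0.97), *Srsf3* (0.88) and the SF3b genes *Sf3b2* (1.15), *Sf3b3* (1.00) and *Sf3b1* (0.73), with limma adjusted p values of 0.00188 to 0.0246. The difference of *Sf3b1* was lost without KO RNP replicates 1 and 3 and KO polysome replicate 2 (0.0806, 0.0936 and 0.0514). *Sf3b2*, *Sf3b3* and *Sf3b1* encode the large subunits of SF3b, and they were 3 of the 9 tested SF3 genes. Lower in polysomes were *Hnrnpdl* (-1.36), *Snrpa* (-1.28), *U2af1l4* (-0.73) and *Snrpb2* (-0.64), with limma adjusted p values of 0.00203 to 0.047. *Snrpa* and *Snrpb2* encode the A protein of U1 snRNP and the B″ protein of U2 snRNP, which are related and bind stem-loops of the snRNA. *Sf3b2*, *Sf3b3* and *Snrpa* overlap other genes on the opposite strand. *Hnrnpm* and *U2af1l4* overlap exons of *March2* and *Gm49396* on their own strand, and reads of the shared parts cannot be separated here. The *Snrpb2* difference was kept only without KO polysome replicate 2 (0.074 to 0.155 otherwise).

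**Figure D4:**
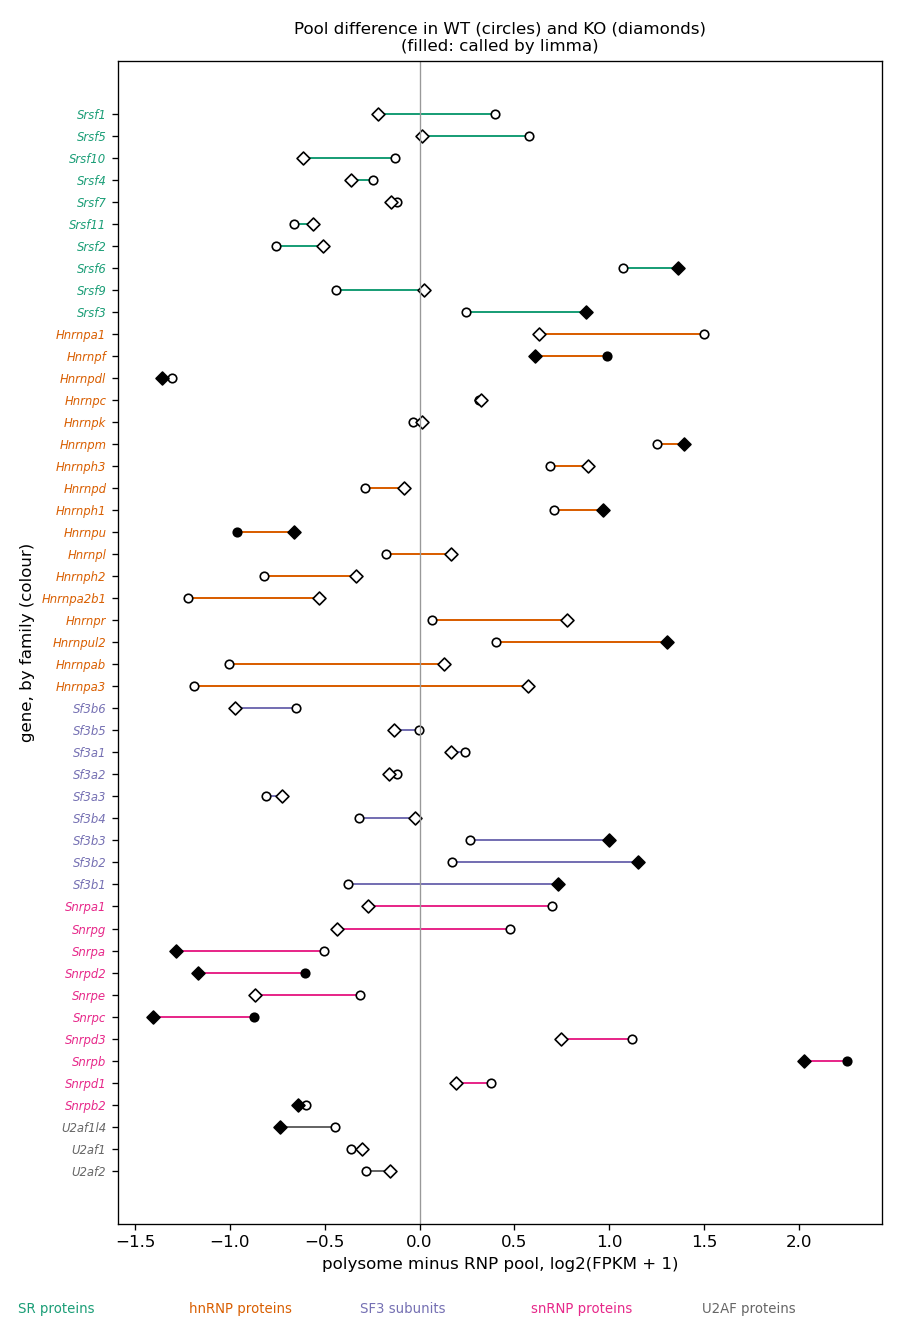
Polysome minus RNP difference on the log2(FPKM + 1) scale in WT (circles) and KO (diamonds) for the 49 members tested in both genotypes (rows, by family), with a line joining the 2 values and filled symbols where limma called the difference. In each of the 10 snRNP genes the KO value is to the left of the WT value.

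Whether the pool difference itself changed with genotype was tested as the interaction over all 12 libraries, called here the polysome-to-RNP ratio. By limma, 0 of 51 tested members were called, with 6 (11.8%) at an unadjusted p under 0.05, against 0.237% of all 10949 genes called (0.0822% higher and 0.155% lower) and 11.1% at an unadjusted p under 0.05. No member was called in any of the 8 other settings run or with any library left out. The directions differed by family. All 10 tested snRNP genes had a ratio below 0 in KO, from -0.966 to -0.0405 with a median of -0.545, and 15 of 19 tested hnRNP genes had a ratio above 0, with a median of 0.26. Over all genes the median was 0.038, with 5736 above and 5213 below 0. The snRNP count stayed at 10 of 10 with equal library medians and with quantile normalization and was 9 of 10 with a pseudocount of 5. With a library left out it was 8 to 10 of 10, lowest without WT RNP replicate 2 or KO polysome replicate 3, and 10 of 10 with a median of -0.479 without the KO library that holds *Mir300*. The hnRNP count was 14 of 19 under both of these scalings, and 12 to 15 with a library left out. The genes of a family share libraries and are not replicates, and these counts are descriptions.

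The snRNP genes reached this common direction from both pools. In polysomes 7 of 10 were below 0, and in RNP 9 of 10 were above 0, the exception being *Snrpc*, and both counts were the same under both scalings. Over all genes, 4223 of 9536 were below 0 in polysomes and 5293 of 9931 above 0 in RNP. The RNP count of snRNP genes was 6 of 10 without WT RNP replicate 3 and 8 of 10 without WT RNP replicate 2, and 9 of 10 without each of the other 4 libraries. The median in polysomes was -0.20, and -0.03 without KO polysome replicate 1. In RNP it was 0.311, and 0.209 to 0.48 with a library left out. The lowest ratio was that of *Snrpa1*, which encodes the A′ protein of U2 snRNP, with 20.0, 18.9 and 20.2 FPKM in WT and 16.2, 14.6 and 9.56 FPKM in KO polysomes, and 14.4, 8.37 and 13.5 FPKM in WT and 19.6, 16.1 and 13.2 FPKM in KO RNP (ratio change -0.97, SE 0.39, limma adjusted p = 0.37). Its polysome groups did not overlap and its RNP groups did, and it overlaps exons of *Gm45213* on its strand. *Snrpg* followed at -0.92 (SE 0.74, limma adjusted p = 0.707) and the hnRNP gene *Hnrnpa1* at -0.87 (SE 0.79, limma adjusted p = 0.741), both with wide errors.

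At the other end were *Hnrnpa3* (1.76, SE 0.89, limma adjusted p = 0.501), *Hnrnpab* (1.13, SE 0.69, limma adjusted p = 0.587) and *Sf3b1* (1.11, SE 0.32, limma adjusted p = 0.199). *Hnrnpa3* included a WT polysome library at 0.0641 FPKM beside others at 5.15 and 4.56 FPKM, and without that library its ratio change was 0.94 (limma adjusted p = 0.595). *Sf3b1*, on chromosome 1 from 54985169 to 55027481, had the smallest error of these. It had 13.9, 16.6 and 11.2 FPKM in WT and 21.3, 21.1 and 20.6 FPKM in KO polysomes, and 16.5, 20.7 and 17.4 FPKM in WT and 11.9, 14.6 and 10.6 FPKM in KO RNP. All KO polysome libraries were above, and all KO RNP libraries below, the WT libraries of their pool. The change within each pool did not pass the test (0.58, limma adjusted p = 0.218 in polysomes, and -0.53, limma adjusted p = 0.132 in RNP).

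Coding length moved with the ratio among the members. Lengths were taken from the longest coding transcript of each gene in GENCODE M21, with a median of 1020 bases over the members. The Spearman correlation of coding length with the ratio change was 0.475 over 51 members and 0.198 over the 10094 tested genes with a coding length. These points share libraries and depth, so no p is given. Of the 25 tested members at or under 1020 bases, 17 (68%) had a ratio below 0, with a median of -0.229, and of the 26 longer members 7 (26.9%) did, with a median of 0.202. Over all genes, 57.5% of those at or under 1020 bases and 41.7% of the longer ones were below 0, with medians of -0.138 and 0.126. The snRNP genes all fall in the shorter set, whereas the large SF3b genes fall in the longer one. The correlation was 0.00724 for the pool difference of the members in WT and 0.348 in KO, against -0.0146 and 0.154 over all genes. The part of coding length in the ratio of the snRNP genes was not tested.

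Elements that recruit the cytoplasmic polyadenylation machinery were counted in the 3′ ends of the transcripts, because in oocytes they govern the storage and later translation of many mRNAs. The last 100 bases of the 3′ UTR were searched on the sense strand for TTTTAT and TTTTAAT, which cannot start at the same base. The element was present in 9 of 55 members (16.4%), against 18% of 17753 genes with such a window. *Sf3b1* was the only member with 3 elements. Windows of 30 bases from GENCODE transcripts on GRCm38, 5′ to 3′ in the sense of the mRNA with the element in capitals, show it in *Sf3b1* (chr1:54985222-54985251, minus strand), *Sf3a1* (chr11:4182494-4182523, plus strand) and the Sm gene *Snrpd3* (chr10:75537336-75537365, plus strand).
Sf3b1: ttatattgtatTTTTAATatttgttgtatg
Sf3a1: aataagtatcatTTTTATatgtattatgta
Snrpd3: ctgtttggtttaTTTTATtgtattaataaa
Of the 8 tested members with an element, 0 were called by limma between KO and WT in either pool. Over all genes 10.4% were called in polysomes and 20.7% in RNP, so 0 of 8 says little. The median change of these members was -0.03 in polysomes and -0.205 in RNP. It was 0.152 and 0.192 in the members without an element, and 0.103 and 0.0541 over all genes. *Sf3b1* was the only one of the 8 called between pools, in KO, beside 14.7% of all genes called between pools in WT and 29.2% in KO. A match is a description of these letters and does not show that the element is used.

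The other genes of the splicing machinery were examined as a list of 154 genes outside the 5 families, of which 152 were in the table. In polysomes 3 were higher and 2 lower in KO of 124 tested (4.03%), in RNP 5 were higher and 14 lower of 127 (15%), and for the ratio 0 of 132 were called by limma. Between pools 17.2% were called in WT and 34.7% in KO. In WT this was above the 9.8% of the members, and the other shares lay within 1 percentage point of theirs. The 2 that fell in polysomes were *Snrnp27* and *Gemin7*. *Snrnp27*, which encodes a tri-snRNP protein, had 84.4, 69.5 and 81.6 FPKM in WT and 14.0, 22.0 and 28.1 FPKM in KO polysomes (-1.88, SE 0.27, limma adjusted p = 0.00529), and it changed by -1.55 in RNP (SE 0.14, limma adjusted p = 0.000141). *Gemin7*, a subunit of the SMN complex that loads Sm rings onto snRNA, fell in polysomes from 584, 419 and 410 FPKM to 189, 167 and 203 FPKM (-1.32, SE 0.16, limma adjusted p = 0.00333). Both genes had KO values below every WT value.

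The 14 falls in KO RNP among the 127 tested genes were spread over several of these groups, beside 10.2% of all genes called lower in that pool. They took in 3 of 13 tested genes of the Prp19 complex, led by *Ppie* (-1.16, limma adjusted p = 0.0084), and 3 of 12 second-step factors, led by *Cdc40* (-1.38, limma adjusted p = 0.00661). Of the tri-snRNP genes 2 of 13 fell, of the minor spliceosome 2 of 10, and of the other splicing regulators 1 of 31. Of the SMN complex 2 of 11 fell, led by *Gemin6* (-1.29, limma adjusted p = 0.00473). Among 9 tested genes for the kinases and import factors of SR proteins, 1 fell, the kinase gene *Clk1* (-0.85, limma adjusted p = 0.027). Of these 9 genes 8 were below 0, against 4638 of 9931 over all genes. This stood beside the SR genes themselves, 9 of 10 of which were above 0 in the same libraries. The list of LSm genes, which encode relatives of the Sm proteins, was not limited to those of the U6 ring. Of the 9 tested, 0 were called by limma between genotypes, and 6 had a ratio below 0, with a median of -0.608. *Lsm4* had the largest pool difference among them in WT (2.72, SE 0.25, limma adjusted p = 0.000253).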

How the data were processed

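According to the submitters' processing notes, reads were mapped with TopHat2 2.0.13 to mm10 and quantified with Cufflinks 2.2.1. The deposited table gives the authors' FPKM per gene symbol in 12 libraries, amplified by Smart-seq2. Its columns of cuffdiff fold changes, p-values and q-values were not used. Counting by strand and the annotation release are not given in the sources used here. Gene-level FPKM does not separate isoforms, such as those with poison exons.

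Here log2(FPKM + 1) was fitted with limma 3.58.1 (R 4.3.3; eBayes with an intensity trend, two-sided) over genes that reached 1 FPKM in 3 or more of the libraries compared, with Benjamini-Hochberg adjustment at 0.05. The pseudocount understates changes of weakly expressed genes. KO and WT were compared in each pool and in their ratio, and the pools within each genotype, without a block. Named genes are members called in a comparison, the 3 most abundant per family, and the 3 with the largest ratio change each way. *Snrpc*, *Sf3b1*, *Hnrnph1*, *Hnrnpa0*, *Sf3b6*, *Srsf1* and *U2af1* between genotypes, the levels of low members, *Mir300* and the granulosa, blood and endothelium markers named singly were chosen after their values were seen. The members and gene lists were chosen with earlier results of these data known. Positions and sequences came from GENCODE M21 on GRCm38. Depth was estimated from steps of low values, with transcript length less 200 bases. Scripts used Python 3.11.15, pandas 2.3.3, numpy 2.4.6, scipy 1.17.1 and matplotlib 3.10.9, and were tested on simulated data. Total-RNA libraries were not analysed here.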

Additional observations from a re-analysis of the deposited data

Results flagged for a closer look

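*Sf3b1* was singled out because its KO libraries moved in opposite directions in the 2 pools. All 3 KO polysome libraries lay above, and all 3 KO RNP libraries below, the WT libraries of the same pool. The difference between these changes was 1.11 on the log2(FPKM + 1) scale (SE 0.32, unadjusted p = 0.00455), and it did not pass the test over all genes (limma adjusted p = 0.199).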

How the results depend on the processing

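Alternatives were a pseudocount of 0.1 or 5, no filter, a filter at 5 FPKM, quantile normalization, equal library medians, a block for the replicate number, variances without an intensity trend, 1 fit over all 12 libraries (not for the ratio) and leaving out each library. In KO polysomes the 2 members called higher became 1 with a pseudocount of 0.1, no filter, the block or no trend, 5 in the single fit and 1 to 2 with a library left out, and the 0 called lower became 1 with the filter at 5 FPKM or in the single fit (0 to 0). In KO RNP the 4 called higher became 2 without a filter, 1 without the trend and 1 to 4 with a library left out, and the 4 called lower became 2 without a filter or with the block, 1 in the single fit and 0 to 4. Between pools in WT, the 2 called higher became 1 without a filter or the trend, 5 in the single fit and 1 to 2, and the 3 called lower became 1 with equal medians or the block, 0 without the trend, 5 in the single fit and 0 to 2. The counts in KO between pools (10 and 7) moved by less than 1.5 times, and those of the ratio remained 0.

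Over all genes, the 989 calls in polysomes became 545 without a filter, 508 without the trend, 1843 in the single fit and 383 to 790 with a library left out. The 2057 calls in RNP became 1255 to 1911, the 26 for the ratio became 0 with the block, 6 without the trend and 0 to 46, and the 1406 between pools in WT became 728 without the trend, 2302 in the single fit and 780 to 1212.

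Of values for single genes under the settings other than a left-out library, 539 kept their side of the threshold, 44 lost and 3 gained it, and none changed direction. With a library left out these numbers were 355, 62 and 2, and 7 values reversed, none of which had passed the test. In polysomes the left-out values were -0.295 to 0.0463 for *Sf3a1*, -0.0795 to 0.0734 for *Snrpd2*, -0.274 to 0.0231 for *U2af1l4* and -0.0782 to 0.665 for *U2af2*, and in RNP -0.0602 to 0.213 for *Snrpd1* and -0.0407 to 0.445 for *Snrpe*. The counts of snRNP and hnRNP genes by sign of the ratio were added after seeing the data. The replicate numbers gave no sign of pairing between libraries (correlation of same-number deviations -0.0207 to 0.0255, with 2, 4, 0 and 0 of 6 libraries closest to their own number). With 3 libraries per group this check cannot settle whether libraries were paired, for example as pools of the same gradient. The cause of these changes was not tested. With 3 libraries per group, low members such as *Hnrnpa3* rest on few fragments.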
